A study of Mus musculus with 8 samples.

Results

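*Srf*, the gene of the serum response factor, and 9 genes of the actin cytoskeleton that are known as its targets were examined in mouse hippocampal neuron cultures. These 10 genes (*Srf*, *Actb*, *Actg1*, *Acta2*, *Vcl*, *Tagln*, *Cnn2*, *Myl9*, *Flna* and *Tpm1*) were chosen by name from the 45706 genes of the deposited count table. All 10 were among the 14962 genes with enough reads to be tested. Hippocampal neurons from embryonic day 18 C57/Bl6 *Wt* mice were kept in culture for 12 to 14 days in vitro and received 1 µM melanin-concentrating hormone (MCH) peptide or its vehicle, H2O, for 4 h, with 4 wells per treatment. The sample labels also carry an Alzheimer's disease model tag, whereas their genotype entry and the study's methods give wild-type neurons for all 8 wells. By the methods, 2 cultures supplied 2 wells to each treatment. Which replicate belonged to which culture is given by neither the labels nor the methods and was not assigned. *P* values therefore measure the spread between wells, part of which may be technical.

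The serum response factor binds DNA as a dimer at the CArG box, a motif in which a run of A and T bases lies between CC and GG. It works with 2 kinds of partner. The myocardin-related factors (MRTFs) are held in the cytoplasm by monomeric actin and are released when actin polymerizes, and with them the factor drives genes of actin itself and of proteins that bind, cap or cross-link filaments. The ternary complex factors (TCFs: Elk1, Elk3 and Elk4) are phosphorylated by MAP kinases and drive immediate early genes such as *Fos*. In neurons the first arm is known for its part in neurite shape and spine structure and the second for the response to activity, whereas in smooth muscle, pericytes and fibroblasts the first arm supports the contractile genes *Acta2*, *Tagln* and *Myl9*.

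The CArG boxes of the 10 genes were looked for first, because they are the sequence by which the factor recognizes a target. RefSeq on GRCm38.p6 gave promoters for 8 of the 10 genes, and the 250 bases before the annotated start were read. A match to the CArG box, whose pattern is the same on both strands, was present in 5 of the 8 genes, against 1.62% of the 27025 genes and 1.47% of the 32851 promoters of the same length in the table. The 10 genes were chosen as *Srf* and its known targets, so the choice itself favours a high share. Of the 5 genes with a box, 3 have their promoters shown 5′ to 3′ with the box in capitals. That of *Srf* is shown because it holds 2 boxes. Those of *Vcl* and *Cnn2* are examples of genes whose wells fell into separate groups, as described further on. *Myl9* was another such gene, with its box given below, and whether a box bears on these groups was not tested. The *Srf* window is chr17:46556163-46556412 on the minus strand, with boxes 82 to 73 and 62 to 53 bases before the start. The *Vcl* window is chr14:20929148-20929397 on the plus strand, with its box 227 to 218 bases before the start, and the *Cnn2* window is chr10:79988350-79988599 on the plus strand, with its box 56 to 47 bases before the start.
Srf: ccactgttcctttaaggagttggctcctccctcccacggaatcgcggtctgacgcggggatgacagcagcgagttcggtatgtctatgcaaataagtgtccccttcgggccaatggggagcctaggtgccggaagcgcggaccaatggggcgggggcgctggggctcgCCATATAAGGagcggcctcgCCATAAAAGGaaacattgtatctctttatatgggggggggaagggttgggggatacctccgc
Vcl: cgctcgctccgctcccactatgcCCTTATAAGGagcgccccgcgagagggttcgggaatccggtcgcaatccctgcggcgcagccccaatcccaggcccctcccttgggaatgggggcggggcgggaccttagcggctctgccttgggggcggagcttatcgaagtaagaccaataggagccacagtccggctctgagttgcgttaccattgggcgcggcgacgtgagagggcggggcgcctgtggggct
Cnn2: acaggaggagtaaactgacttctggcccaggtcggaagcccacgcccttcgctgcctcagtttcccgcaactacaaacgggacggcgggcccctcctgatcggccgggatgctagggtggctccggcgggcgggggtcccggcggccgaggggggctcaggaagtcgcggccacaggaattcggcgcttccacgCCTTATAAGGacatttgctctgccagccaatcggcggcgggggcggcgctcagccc
In *Actg1* the box CCATATATGG lay 90 to 81 bases before the start, and in *Myl9* the box CCTAATAAGG lay 161 to 152 bases before it. The windows of *Acta2*, *Flna* and *Tpm1* held no exact match. The same search found a box in 7 of 46 other genes of the actin arm, in 3 of 15 genes of the TCF arm and in 1 of 7 partner genes. A match describes the letters in these windows and was not tested as a binding site.

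Stranded libraries of poly-A RNA, 1 for each well, gave a total of 26083936 to 31844861 estimated counts per well. Markers of neurons summed to 8342 to 9458 TPM (a level scaled for transcript length and depth) in the 8 wells, above the 403.5 to 1388 TPM of astrocyte markers and the 7.15 to 19.7 TPM of mural and smooth muscle markers. Earlier work on these counts found that replicates 1 and 2 of both treatments stood apart from replicates 3 and 4. These groups are called sides here. In bulk samples such as these, fewer cells of a type and less RNA per cell cannot be told apart. Because the sides were read from the counts, differences between them are given as a description, with no test. Over all genes tested, the wells of the sides did not overlap in 29.6%, and the median size of the difference between the sides was 0.117 on the log2 scale.

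None of the 10 genes passed the test for a change with MCH. In 4 of them (*Myl9*, *Tagln*, *Cnn2* and *Vcl*) the sides, both treatments joined, did not overlap, with replicates 3 and 4 higher. Over all genes tested, 16.6% stood apart in that direction and 29.6% in either. In the edgeR quasi-likelihood F test with Benjamini–Hochberg adjustment over all genes, 0 of the 10 genes passed the threshold of 0.05, against 0.234% of all genes tested. At an unadjusted *P* value under 0.05, 0 of the 10 passed, and DESeq2 and limma voom also called 0. DESeq2 gave no adjusted *P* value for *Acta2* and *Myl9*, so it could not call them. In fits with the side or the replicate number as a block, which called 4.46% and 3.98% of all genes, 0 of the 10 passed. In 0 of the 10 genes did the wells of the treatments stand apart without overlap, against 6.03% of all genes. Of the 10 genes, 9 had a log2 fold change below 0, as in 51% of all genes, with a median of −0.033, against −0.0027 over all genes. That count varied with the wells present and with the fit. Without vehicle replicate 3, vehicle replicate 4, MCH replicate 1 or MCH replicate 2, 5, 4, 5 and 4 of the 10 were below 0. Without any other single well 9 were. Leaving out 1 well leaves the sides unequal between the treatments. On all 8 wells, 9 were below 0 with the side or the replicate number as a block. With limma voom 8 were, and with the average transcript length as an offset 7.

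**Figure D1:**
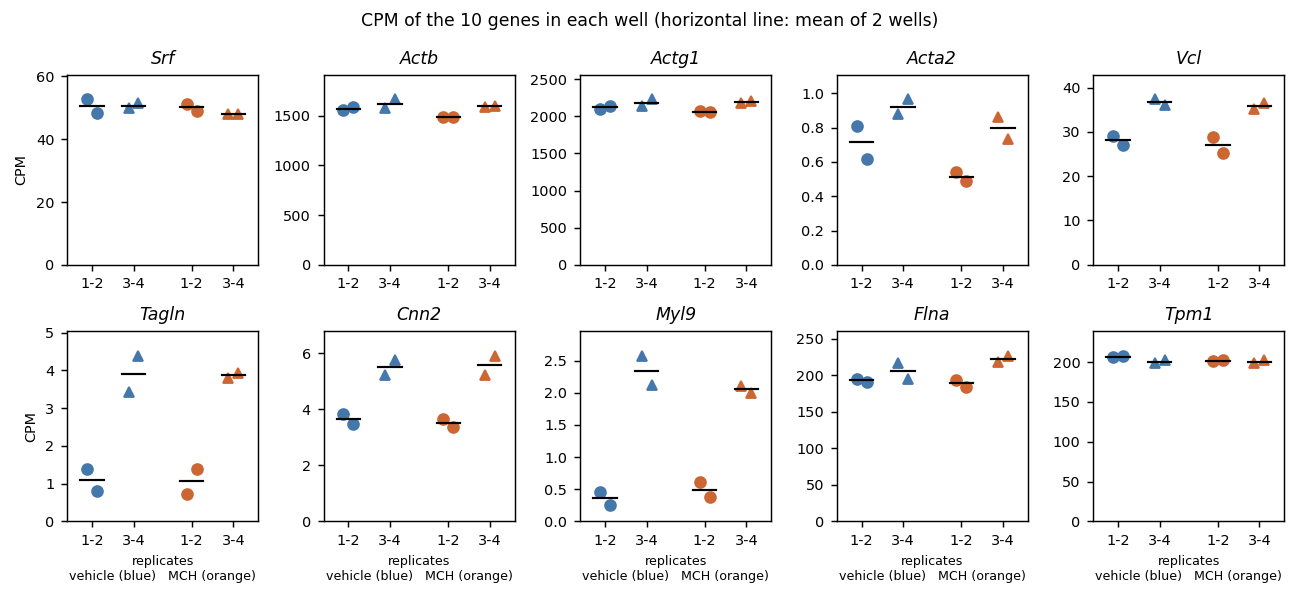
Level in CPM (reads scaled to a common library size, y axis, linear from 0) of the 10 genes in each well, with vehicle in blue, MCH in orange, replicates 1 and 2 as circles, replicates 3 and 4 as triangles, and a line at the mean of each pair. In *Myl9*, *Tagln*, *Cnn2* and *Vcl* all triangles lie above all circles, whereas in *Srf* and *Tpm1* the colours and the shapes overlap.

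*Srf* (ENSMUSG00000015605, chromosome 17 of GRCm38, 46548329 to 46556175, minus strand) encodes the transcription factor itself. The 4 vehicle-treated wells had 52.7, 48.35, 49.99 and 51.4 CPM (reads scaled to a common library size with edgeR's TMM factors), and the 4 MCH-treated wells had 51.4, 49.1, 48.0 and 48.0 CPM, in the order of replicates 1 to 4. The wells of the treatments overlapped, and all 8 lay within a narrow band. The mean was 50.6 ± 1.88 CPM with vehicle and 49.1 ± 1.60 CPM with MCH (SD, n = 4 wells each). The log2 fold change was −0.044, with a standard error of 0.042, a 95% interval of −0.14 to 0.051 and an adjusted *P* value of 0.878 in the edgeR quasi-likelihood F test with Benjamini–Hochberg adjustment. Between the sides *Srf* differed by −0.03 (replicates 3 and 4 minus replicates 1 and 2, log2 CPM), and 85.6% of all genes tested differed by more. With library totals in place of TMM factors *Srf* differed by 0.00031, so the difference has no settled sign. The reads of *Srf* all came from the single annotated transcript *Srf-201*.

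The 3 actin genes followed. *Actb* (ENSMUSG00000029580, chromosome 5, 142903115 to 142906754) encodes cytoplasmic beta-actin. Its wells had 1554, 1585, 1581 and 1665 CPM under vehicle and 1488, 1483, 1593 and 1598 CPM with MCH. MCH replicates 1 and 2 were the lowest of the 8 wells, and the treatments overlapped through replicates 3 and 4. The log2 fold change was −0.051 (95% interval −0.14 to 0.039, adjusted *P* = 0.819 in the edgeR quasi-likelihood F test with Benjamini–Hochberg adjustment). With the side as a block, the interval was −0.097 to −0.0071, and the adjusted *P* value of 0.19 in the edgeR quasi-likelihood F test with Benjamini–Hochberg adjustment did not pass the threshold. Without vehicle replicate 3, a fit added after seeing the data, the side block called *Actb* at −0.066 (adjusted *P* = 0.0398 in the edgeR quasi-likelihood F test with Benjamini–Hochberg adjustment), the one well of the 8 whose absence gave a call among the 10 genes. With the transcript length offset its sign turned, to 0.040.

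*Actg1* (ENSMUSG00000062825, chromosome 11, 120345690 to 120348542) encodes cytoplasmic gamma-actin. Its wells had 2098, 2144, 2138 and 2229 CPM under vehicle and 2073, 2055, 2182 and 2208 CPM with MCH, which overlapped. The log2 fold change was −0.015, with a 95% interval of −0.099 to 0.069 from the same fit. Between the sides *Actb* differed by 0.08 and *Actg1* by 0.07 on the log2 scale, with overlapping wells. When the counts were scaled by library totals instead of TMM factors, the sides no longer overlapped in either gene.

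*Acta2* (ENSMUSG00000035783, chromosome 19, 34241090 to 34255590) encodes the alpha-actin of smooth muscle. It was scarce, with 0.813, 0.616, 0.881 and 0.965 CPM under vehicle and 0.543, 0.488, 0.864 and 0.737 CPM with MCH. These values stand for 13 to 26 estimated reads per well. The treatments overlapped, and in each treatment replicates 3 and 4 were above replicates 1 and 2. *Acta2* had the log2 fold change farthest from 0 of the 10 genes, −0.31, and a wide 95% interval, −0.93 to 0.31 (adjusted *P* = 0.853 in the edgeR quasi-likelihood F test with Benjamini–Hochberg adjustment). The difference between the sides was 0.46 on the log2 scale, 0.35 within the vehicle-treated and 0.57 within the MCH-treated wells, and the wells of the sides overlapped when the treatments were joined.

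The actin genes resemble one another, and reads could be shared between them. Over their coding parts, the main transcripts of *Actb* and *Actg1* were 88.65% identical, those of *Actb* and *Acta2* 82.8% and those of *Actg1* and *Acta2* 81.5%. Of the stretches of 31 bases in *Actb-201*, 5.61% also occurred in *Actg1-202* and 0.90% in *Acta2-201*. How salmon divided such reads was not tested, and with 2055 to 2229 CPM of *Actg1* beside 0.488 to 0.965 CPM of *Acta2*, the level of *Acta2* is uncertain.

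**Figure D2:**
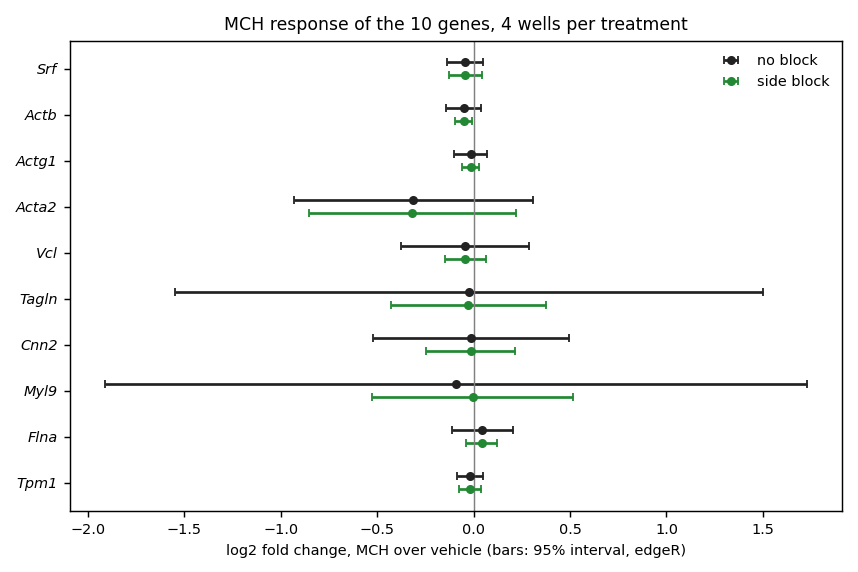
Log2 fold change of MCH over vehicle for each gene (x axis), with 95% intervals from edgeR's quasi-likelihood fit over 4 wells per treatment, without a block (black) and with the side as a block (green). The intervals without a block all include 0, and those of *Tagln* and *Myl9* narrowed from −1.545 to 1.501 and −1.91 to 1.73 to −0.43 to 0.37 and −0.52 to 0.51 with the block.

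*Tagln* (ENSMUSG00000032085, chromosome 9, 45929619 to 45936058) encodes transgelin, an actin-bundling protein of smooth muscle. Its wells had 1.39, 0.797, 3.42 and 4.38 CPM under vehicle and 0.734, 1.39, 3.80 and 3.93 CPM with MCH. Every well of replicates 3 and 4 lay above every well of replicates 1 and 2, whereas the treatments overlapped within each side. The sides stood at 1.08 ± 0.362 and 3.88 ± 0.397 CPM (SD, n = 4 wells each), a 3.56-fold difference, or 1.83 on the log2 scale. It was 1.81 within the vehicle-treated and 1.86 within the MCH-treated wells. The MCH response was −0.022 (95% interval −1.545 to 1.501), and with the side as a block the interval narrowed to −0.43 to 0.37.

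*Myl9* (ENSMUSG00000067818, chromosome 2, 156775420 to 156781658) encodes a regulatory light chain of smooth muscle and non-muscle myosin. Its wells had 0.464, 0.2535, 2.57 and 2.12 CPM under vehicle and 0.607, 0.375, 2.11 and 2.00 CPM with MCH, from 7 to 73 estimated reads. Here too the sides were apart and the treatments overlapped. *Myl9* had the widest gap between the sides of the 10 genes, 4.72-fold or 2.24 on the log2 scale, and 0.214% of all genes tested differed by more. The gap was 2.53 with vehicle and 1.95 with MCH. The difference of MCH from vehicle was 0.40 on the side of replicates 1 and 2 but −0.18 on that of replicates 3 and 4, and the interaction of treatment and side did not pass the threshold (adjusted *P* = 0.818 in the edgeR quasi-likelihood F test with Benjamini–Hochberg adjustment).

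*Cnn2* (ENSMUSG00000004665, chromosome 10, 79988584 to 79996062) encodes calponin 2, an actin-binding protein found in many cell types. Its wells had 3.83, 3.48, 5.21 and 5.755 CPM under vehicle and 3.64, 3.38, 5.22 and 5.89 CPM with MCH. The sides, at 3.58 ± 0.199 and 5.52 ± 0.355 CPM (SD, n = 4 wells each), did not overlap, and they differed by 0.61 on the log2 scale, or 1.53-fold. The MCH response was −0.012 (95% interval −0.52 to 0.50).

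*Vcl* (ENSMUSG00000021823, chromosome 14, 20929398 to 21033676) encodes vinculin, which ties actin filaments to adhesion sites. Its wells had 29.1, 27.1, 37.3 and 36.2 CPM under vehicle and 28.9, 25.25, 35.1 and 36.6 CPM with MCH. Replicates 3 and 4 were above replicates 1 and 2 in every well, by 0.40 on the log2 scale or 1.32-fold, with 0.39 in the vehicle-treated and 0.41 in the MCH-treated wells. The MCH response was −0.044, and its 95% interval of −0.37 to 0.29 became −0.15 to 0.063 with the side as a block.

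*Flna* (ENSMUSG00000031328, chromosome X, 74223461 to 74249820) encodes filamin A, which cross-links actin filaments into networks. Its wells had 196, 191, 217 and 195 CPM under vehicle and 194, 185, 219 and 227 CPM with MCH. Vehicle replicate 3 was apart from the other vehicle-treated wells, and the treatments overlapped. *Flna* was the one gene of the 10 with a log2 fold change above 0, at 0.046 (95% interval −0.11 to 0.20). The difference of MCH from vehicle was −0.032 on the side of replicates 1 and 2 but 0.12 on that of replicates 3 and 4. Its interaction of treatment and side had an unadjusted *P* value of 0.0394 and an adjusted *P* value of 0.643 in the edgeR quasi-likelihood F test with Benjamini–Hochberg adjustment, so a difference in response was not shown. By the same test 7.6% of all genes had an unadjusted *P* value under 0.05, and 0 of the 10 genes and 0.0267% of all genes passed after adjustment.

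*Tpm1* (ENSMUSG00000032366, chromosome 9, 67022590 to 67049406) encodes tropomyosin 1, which lies along actin filaments. Its vehicle-treated wells had 206, 208, 198 and 203 CPM and its MCH-treated wells 201, 202, 199 and 202 CPM, so that both the treatments and the sides overlapped. Its log2 fold change with MCH was −0.018 (95% interval −0.086 to 0.050). The difference between the sides was −0.03 with TMM factors and 0.0043 with library totals, so it has no settled sign.

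Read together, 4 of the 10 genes had sides that did not overlap, all higher in replicates 3 and 4, against 29.6% of all genes in either direction and 16.6% in that direction. The mean was higher in replicates 3 and 4 in 8 of the 10, against 48.9% of all genes. The remaining genes, *Srf* and *Tpm1*, were also above 0 with library totals, at 0.00031 and 0.0043. The median difference between the sides was 0.28 over the 10 genes and −0.0042 over all genes tested. With library totals 7 genes did not overlap (*Actb*, *Actg1* and *Flna* in addition), and with log2 TPM 5 did not. The share of all genes under these scalings is not given here, and library totals put the median over all genes tested at 0.0254. Over the 8 wells, *Vcl*, *Tagln*, *Cnn2* and *Myl9* correlated with one another at Pearson's r of 0.875 to 0.968, and *Actb* with *Actg1* at 0.942. *Srf* correlated with the other 9 genes at −0.443 to 0.177. These correlations are descriptions over n = 8 wells that share the sides and their libraries. The 5 genes whose log2 CPM was most like that of *Srf*, of 13343 compared, were *Kri1* (r = 0.912), *Lrrc8a* (0.909), *Csnk1g3* (0.904), *Eif2b3* (0.885) and *Tubgcp6* (0.88). None of the 9 targets was among them.

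Markers of cell types other than neurons moved with the sides in the same direction as these 4 genes. The counts of markers below stand against 29.6% of all genes with no overlap between the sides, and 16.6% in that direction. All 10 astrocyte markers were higher in replicates 3 and 4 with no overlap, and their sum was 1102 to 1215 CPM on the side of replicates 1 and 2 against 2365 to 2705 CPM in replicates 3 and 4. *Gfap*, the intermediate filament of astrocytes, stood at 141 and 626 CPM. Of the neural progenitor markers, 8 of 9 did not overlap, with sums of 141 to 178 and 427 to 452 CPM.

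Cells that use the contractile genes most were looked at next. Of 11 markers of mural and smooth muscle cells, 4 had enough reads to be tested and 3 of these did not overlap between the sides, with sums over the list of 17.0 to 22.1 CPM in replicates 1 and 2 and 43.5 to 47.1 CPM in replicates 3 and 4. The sum was carried by *Rgs5*, a pericyte marker, at 13.9 and 31.8 CPM. *Myh11*, the myosin heavy chain that defines smooth muscle, was at 0.495 and 0.61 CPM, *Des* at 0.0097 and 0.0093 CPM, below the floor of 3 counts per well, and *Higd1b* had 0 reads in all 8 wells. Of 11 fibroblast and meningeal markers, 10 were tested and 8 did not overlap, all higher in replicates 3 and 4, with sums of 65.5 to 74.9 and 144 to 154 CPM. *Dcn*, the matrix proteoglycan decorin, stood at 15.6 and 42.1 CPM.

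Lists of other cells moved as well. Of 10 microglial markers, 5 of the 7 tested did not overlap, with sums of 8.05 to 10.5 and 15.4 to 19.3 CPM. The oligodendrocyte lineage had 5 of 7 tested, with sums of 68.2 to 79.0 and 147 to 170 CPM, and *Sox10*, *Mog* and *Enpp6* at 0 reads. *Pdgfra* is in this list and in that of fibroblasts, so these lists are not wholly separate. Endothelial markers had sums of 3.29 to 4.01 and 5.42 to 6.50 CPM, with all 3 tested higher in replicates 3 and 4 and 2 of them not overlapping. Neuronal markers went the other way, with sums of 12300 to 12560 and 11210 to 11380 CPM, and 0 of 12 were higher in replicates 3 and 4. Markers of inhibitory neurons were lower in 8 of 8, with 7 not overlapping. With MCH, 0 markers of any of these 9 lists passed the threshold in the edgeR quasi-likelihood F test with Benjamini–Hochberg adjustment or in DESeq2, and in each test 1 marker had an unadjusted *P* value under 0.05. With the side as a block, *Gad1*, an enzyme of GABA synthesis, was called, as it was with the replicate block, which also called the astrocyte glutamate transporter *Slc1a2*. These were 1 and 2 of 69 markers tested, against 4.46% and 3.98% of all genes. The interaction of treatment and side called 2 of the markers, both of astrocytes, *Gfap* (adjusted *P* = 0.00432 in the edgeR quasi-likelihood F test with Benjamini–Hochberg adjustment) and the water channel *Aqp4* (adjusted *P* = 0.0103), against 0.0267% of all genes. The difference of MCH from vehicle on the log2 scale was −0.36 on the side of replicates 1 and 2 and 0.15 on the other for *Gfap*, and −0.53 and 0.17 for *Aqp4*. On each side this test compares 2 wells with 2, and the sides were read from these same counts. A response of *Gfap* or *Aqp4* that differs between the sides is therefore not established. The part of these cells in the levels of *Myl9*, *Tagln*, *Cnn2* and *Vcl* was not tested.

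**Figure D3:**
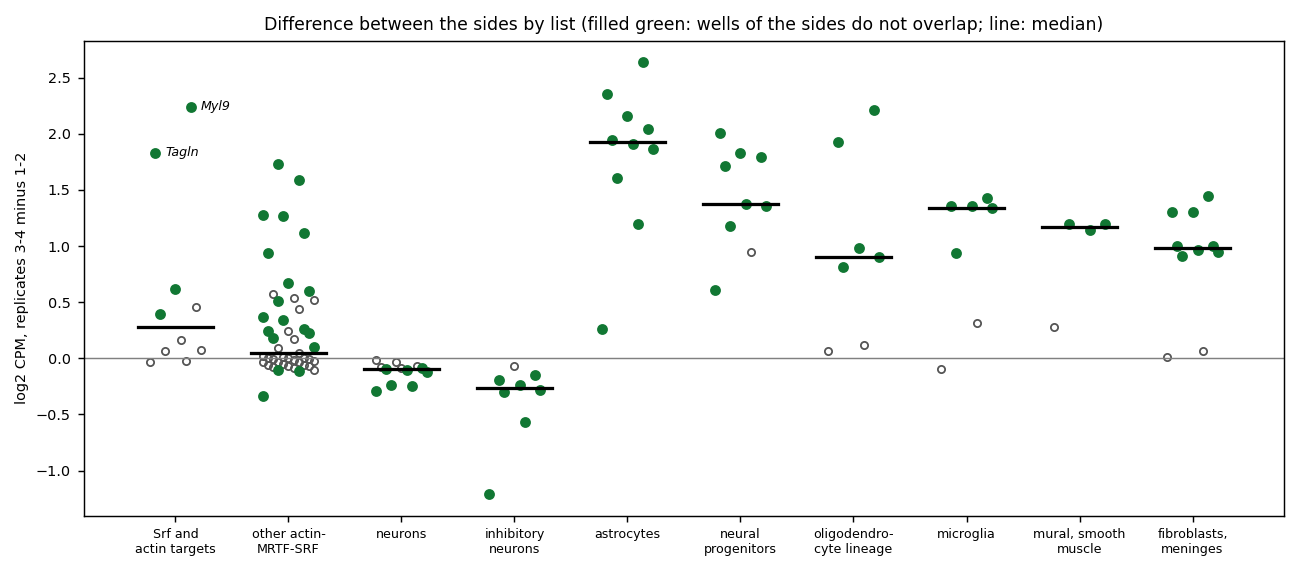
Difference in mean log2 CPM between replicates 3 and 4 and replicates 1 and 2 (y axis) for each tested gene of 10 lists, with filled green points where the wells of the sides do not overlap and a line at the median of each list. *Myl9* and *Tagln* lie at 2.24 and 1.83, within the range of the astrocyte markers, whose median was 1.93, and the neuronal markers lie below 0.

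Levels were compared between the 10 genes per length, as TPM summed over transcripts. From the highest, they were *Actb* (3414 ± 166 TPM, SD, n = 8 wells), *Actg1* (2161 ± 69.4), *Tpm1* (184 ± 4.00), *Flna* (105.5 ± 10.5), and *Srf* (22.1 ± 0.763), none of which overlapped with a neighbour in this order. *Vcl* (10.9 ± 1.70), *Myl9* (5.11 ± 4.77), *Cnn2* (3.91 ± 1.39), *Tagln* (3.165 ± 1.97) and *Acta2* (0.82 ± 0.192) followed, and the neighbours among these 5 overlapped. The lead of *Actb* over *Actg1* rested on a short fragment. *Actb-209*, an annotated processed transcript of 241 bases, held 39.6% of the *Actb* TPM from 310 to 451 estimated reads per well, whereas *Actb-201*, the full coding transcript, held 38.6% from 32402 to 38281 reads. When transcripts under 500 bases were left out, a choice made after seeing the data, *Actb* was at 1962 ± 77.3 TPM and *Actg1* at 2157 ± 69.4 TPM, so that the order of the means turned and the ranges, 1868 to 2084 and 2075 to 2246 TPM, met. With coding transcripts of at least 1000 bases alone, also chosen after seeing the data, *Actb* was at 1321 ± 54.1 TPM, *Actg1* at 2122 ± 65.7 TPM and *Flna* at 33.95 ± 4.43 TPM. Leaving out transcripts under 500 bases put *Myl9* at 2.56 ± 1.79 TPM, below *Cnn2* and *Tagln*.

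The transcripts within a gene were compared where they held at least 5% of its TPM in any well. In *Tpm1*, whose transcripts encode muscle and non-muscle tropomyosins by alternative exons, *Tpm1-209* held 53.5% of the TPM, *Tpm1-210* 23.5%, ENSMUST00000113707 8.95% and *Tpm1-206* 7.49%. Although the wells of the sides overlapped in the level of *Tpm1*, the share of ENSMUST00000113707, a coding transcript of 1898 bases, was 7.14% ± 1.35 on the side of replicates 1 and 2 against 10.8% ± 0.756 on the other (SD, n = 4 wells each), with no overlap. The share of *Flna-203*, one of the full-length coding transcripts of filamin A, was 7.35% ± 2.03 and 11.5% ± 1.01 in the same order, also with no overlap. These were 2 of the 17 transcripts of the 10 genes compared (11.8%), against 3.76% of the 25224 transcripts compared in all. The estimated split of reads among the long *Flna* transcripts varied between wells. *Flna-203* (8456 bases) had 650 to 1850 estimated reads per well, and *Flna-213* (8233 bases) had 0 to 996. In *Flna*, 3 transcripts annotated as retaining introns (*Flna-212*, *Flna-204* and *Flna-211*) held 19.6%, 21.6% and 13.1% of the TPM, and the full-length coding transcript *Flna-201* held 22.7%. These 3 are short, at 1106, 797 and 638 bases, against 8312 bases for *Flna-201*. They had 237 to 337, 177 to 243 and 69.6 to 112 estimated reads per well, against 2383 to 3952 for *Flna-201*. Their TPM therefore rest on few reads, and their share of the *Flna* reads is smaller. With MCH, 0 of the 36 tested transcripts of the 10 genes passed the threshold in the edgeR quasi-likelihood F test with Benjamini–Hochberg adjustment, and 0 had an unadjusted *P* value under 0.05, against 0% of all 33527 transcripts called.

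The partners of the factor gave the next comparison. Of 9 partner and cofactor genes, 7 were tested and 0 passed the threshold with MCH in edgeR or DESeq2, with 0 unadjusted *P* values under 0.05. The MRTF genes *Mrtfa* and *Mrtfb* had log2 fold changes of −0.024 and 0.077. The TCF genes *Elk1*, *Elk3* and *Elk4* had 0.080, 0.0038 and 0.045, and *Fhl2*, a LIM-domain partner of the factor, had 0.094. *Myocd*, the muscle cofactor myocardin, was at 0.0097 CPM with vehicle and 0.0094 CPM with MCH, below the floor of 3 counts, and *Abra* had 0 reads in all wells. *Mical2*, an enzyme that oxidizes nuclear actin and so frees MRTFs, had 615 ± 59.3 CPM under vehicle and 566 ± 41.6 CPM with MCH (SD, n = 4 wells each). The log2 fold change of *Mical2* was −0.12 ± 0.075 (standard error) with an adjusted *P* value of 0.747, and with the side or the replicate number as a block it passed the threshold (adjusted *P* = 0.00397 and 0.0109, all from the edgeR quasi-likelihood F test with Benjamini–Hochberg adjustment). Each block called 1 of the 7 partner genes tested, against 4.46% and 3.98% of all genes.

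The wider actin arm was read from a list of 51 other targets, of which 47 were tested. With MCH, 0 passed the threshold in edgeR without a block, and 4 had an unadjusted *P* value under 0.05. The share of all genes at that unadjusted level is not given here. DESeq2 called 2, *Myh9* and *Rhob*, and 154 of all genes. Without MCH replicate 1, edgeR called *Myh9* (adjusted *P* = 0.0417 with Benjamini–Hochberg adjustment). The median log2 fold change was −0.046, and 37 of the 47 were lower, against −0.0027 and 51% over all genes. The treatments did not overlap in 2 of the 47, against 6.03% of all genes. The 5 smallest *P* values belonged to *Myh9*, *Rhob*, *Capza1*, *Dstn* and *Tpm4*. *Myh9*, the heavy chain of non-muscle myosin IIA, had 94.0, 95.4, 89.45 and 89.1 CPM under vehicle and 85.3, 72.1, 68.7 and 75.75 CPM with MCH, with no overlap. The log2 fold change of *Myh9* was −0.29 ± 0.064 (standard error) with an adjusted *P* value of 0.177, and it passed the threshold with the side as a block (adjusted *P* = 0.0018), both from the edgeR quasi-likelihood F test with Benjamini–Hochberg adjustment. *Rhob*, a small GTPase that acts on actin, had 159, 171, 171 and 167 CPM under vehicle and 192, 199, 189 and 176 CPM with MCH, again with no overlap. The log2 fold change of *Rhob* was 0.18 ± 0.045 (standard error), with adjusted *P* values of 0.24 without a block and 0.0057 with the side as a block, from the same edgeR quasi-likelihood F tests with Benjamini–Hochberg adjustment. *Zyx*, the adhesion protein zyxin, was the third gene of the list that the blocks called, and it is named after its values were seen. The side and replicate blocks each called 3 of the 47 genes, against 4.46% and 3.98% of all genes. These calls are therefore not read as a response of the actin arm. Its means were 96.3 ± 14.2 CPM with vehicle and 82.5 ± 10.2 CPM with MCH, a log2 fold change of −0.22 (adjusted *P* = 0.691 without and 0.000484 with the side as a block, from the edgeR quasi-likelihood F test with Benjamini–Hochberg adjustment).

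Between the sides, 19 of these 47 genes did not overlap, 16 of them higher in replicates 3 and 4, against 29.6% of all genes in either direction and 16.6% in that direction. Those with large gaps included *Tagln2*, a relative of transgelin, at 5.17 CPM in replicates 1 and 2 against 15.6 CPM in replicates 3 and 4. *Ccn1*, a secreted matrix protein, stood at 2.39 and 8.05 CPM, and *Cnn3*, the third calponin, at 74.4 and 142.5 CPM.

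The TCF arm was counted in the same fit. Of 19 immediate early genes listed for this arm, all were tested and 4 passed the threshold, *Fos*, *Fosb*, *Arc* and *Npas4*, all lower with MCH, against 0.207% of all genes. Their log2 fold changes were −0.91, −0.80, −0.59 and −0.94. *Npas4* was no longer called without vehicle replicate 1, 2 or 4 or without MCH replicate 4 (adjusted *P* = 0.0668 to 0.0762 in the same edgeR test). The median of the list was −0.36, with 18 of 19 lower and 11 with no overlap between the treatments, against 51% and 6.03% of all genes. The study names these 4 genes from the same wells, so they are not independent evidence of a direction, and the difference between the arms was not tested.

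**Figure D4:**
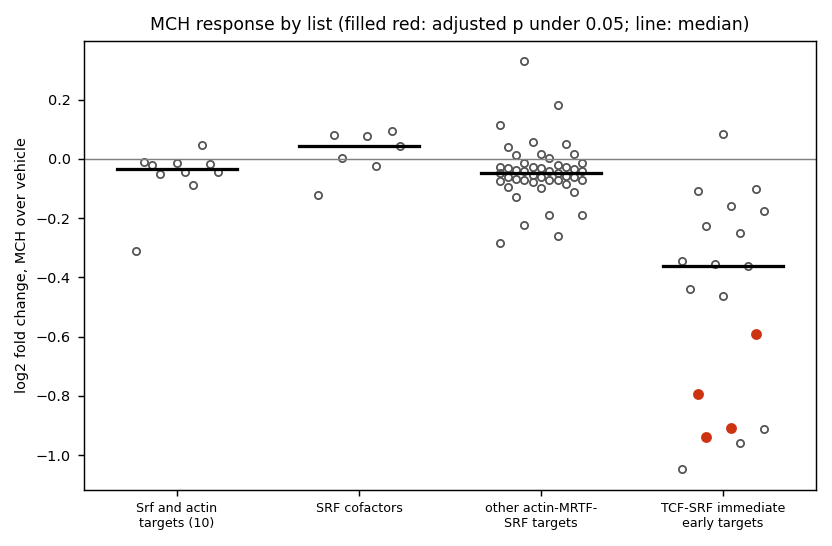
Log2 fold change of MCH over vehicle (y axis) for each tested gene of 4 lists, with filled red points where edgeR's adjusted *P* value was under 0.05 and a line at the median. The 10 genes centre on −0.033 and the other actin targets on −0.046, whereas the TCF list centres on −0.36 and holds the 4 red points.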

How the data were processed

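Neurons of *Wt* mice received MCH or vehicle in 8 wells, grouped by the sample labels, and dose and cultures come from the study's methods. Reads were mapped to GRCm38 by the authors, who used salmon through nf-core/rnaseq and deposited unscaled estimated counts of genes (9.13% not whole) and of transcripts. The deposited TPM were scaled by salmon for length and depth. Totals were 26083936 to 31844861 counts per well, and 3 counts were taken as the floor, which covers counting error only. Names and coordinates are those of GENCODE vM21 on GRCm38, which matched 45143 of 45706 genes and may differ from theirs. The 31-base comparison and coding parts used its transcripts.

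After rounding, counts went into edgeR 4.0.16 under R 4.3.3 (TMM factors, filterByExpr by treatment with minimum 10 and total minimum 15, robust quasi-likelihood F test, no block). *P* values were Benjamini–Hochberg adjusted over the 14962 genes tested, at a threshold of 0.05. DESeq2 1.42.0 and limma 3.58.1 (voom) were alternatives, as were library totals, no filter, a length offset, blocks for side or replicate number, and leaving out each well. CPM are TMM-scaled, and differences between sides are of log2 CPM with a prior count of 2.

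The 10 genes and all lists were chosen with earlier results of these data known. Beyond the 10 genes, the naming rule covers every cofactor, the genes of the other serum response factor lists that were called or had the 5 smallest *P* values, markers at 0 or highest in their list, the 5 genes most like *Srf*, and transcripts with at least 5% of their gene. *Zyx* and the other actin targets and markers named between the sides were chosen after their values were seen.

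Replicate numbers are shared by the treatments. After the treatment means were taken out, wells of the same number correlated at 0.445 to 0.545, wells of the same side at 0.475 to 0.521, and those of opposite sides at −0.548 to −0.438. Each same-number pair exceeded 0.1, the limit used for running the replicate block, but wells of the same side with different numbers exceeded it too. These values show the sides, and a pairing by number beyond the side was not shown. Neither the labels nor the methods state such a pairing.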

Additional observations from a re-analysis of the deposited data

Results flagged for a closer look

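In the 20 groups of 4 wells checked (10 genes in 2 treatments), 1 held a well far from the others. *Flna* stood at 217 CPM in vehicle replicate 3, with the other vehicle-treated wells at 191 to 196 CPM. Chance sets apart about 1 in 20 such groups. Vehicle replicate 4, of the same side, had 195 CPM, and the cause was not tested.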

How the results depend on the processing

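The 10 genes gave 0 calls with MCH under every alternative run without a block and with the side or replicate block. DESeq2 could not call *Acta2* or *Myl9*, for which it gave no adjusted *P* value. The exception to the 0 calls is the side block without vehicle replicate 3, added after seeing the data. It gave 1 call, *Actb* (0 to 1 over the 8 wells left out). The replicate block and the side block called 596 and 668 of all genes against 35, DESeq2 called 154, the length offset 7, and leaving out a well 4 to 29. For the partner genes each block gave 1 call against 0. For the other actin targets each block gave 3, DESeq2 2 and leaving out a well 0 to 1, the call being *Myh9* without MCH replicate 1. For the TCF list the counts were 9 with the side block, 10 with the replicate block, 8 with DESeq2 and 3 to 5 with a well left out, against 4. The number of the 10 genes whose sides did not overlap was 4, against 7 with library totals, 9 in MCH-treated and 6 in vehicle-treated wells alone, where 2 wells face 2, and 4 to 6 with a well left out. The share of all genes under these alternatives is not given here, so these counts have no background to be read against.

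Log2 fold changes near 0 changed sign. With the length offset, *Actb* was at 0.0404, *Tpm1* at 0.0105, *Mrtfa* at 0.011 and *Elk4* at −0.203. With limma voom, *Myl9* was at 0.126 and *Elk3* at −0.0849, and *Elk3* was at −0.0293 with the side block and −0.0359 with the replicate block. With a well left out, the ranges were −0.0263 to 0.00613 for *Actg1*, −0.118 to 0.0516 for *Vcl*, −0.337 to 0.393 for *Tagln*, −0.158 to 0.121 for *Cnn2*, −0.441 to 0.432 for *Myl9*, −0.0544 to 0.0125 for *Mrtfa*, −0.23 to 0.241 for *Elk3* and −0.00388 to 0.11 for *Elk4*. Leaving out 1 well leaves the sides unequal between the treatments, and beyond that the cause was not tested. Apart from *Mical2*, *Myh9*, *Rhob*, *Zyx*, *Gad1*, *Slc1a2* and genes of the TCF list, the replicate block, which takes the numbers as pairs, changed no call named here. The values of *Acta2* rest on 13 to 26 reads per well and those of *Myl9* on 7 to 73.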
